A study of Mus musculus with 12 samples.

Results

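The genotype by diet interaction asks whether visceral fat responds differently to a high-fat diet when the heart makes extra TGF-b1. It subtracts the wild-type diet effect from the transgenic diet effect, each taken as a log2 fold change of high-fat over control diet. All 12 libraries of the series enter it, and 16550 genes of the 50559 gene symbols in the count files were tested. A positive value means that a gene responded more upward, or less downward, to the diet in transgenic fat. Because 4 groups enter, the same value can come from any of them, so the description below gives every group and says which of the 4 stood farthest from the others.

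The groups were FVB/N mice that crossed genotype with diet, with 3 libraries each. Wild type means here that the animals carried the tTA driver under the cardiac alphaMHC promoter and nothing else, so every animal of the study carried the driver. Transgenic animals carried the driver and an alphaMHC TGFb transgene, whose promoter is that of heart muscle. Control chow held 17% of its energy as fat at 3.1 kcal/g, the high-fat diet 60% at 5.21 kcal/g. Feeding began at 8 to 10 weeks of age and lasted 2 or 6 weeks; no label ties a library to a duration. Separate animals per library are not stated either, and the p-values then describe only how these libraries vary, possibly for technical reasons in part.

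White adipose tissue stores energy as triglyceride in large adipocytes and sits among blood vessels, fibroblast-like progenitors, nerves and immune cells. On a high-fat diet the adipocytes enlarge, leptin and matrix genes rise, monocytes and antigen-presenting cells enter, and the adipocytes make less fatty acid of their own. TGF-b1 is a secreted cytokine that signals through a pair of serine kinase receptors to Smad proteins and is known for raising matrix genes and restraining adipocyte differentiation. In an experiment of this form, a diet effect seen in both genotypes is common to them, and only the interaction term speaks to a difference between them.

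The libraries held 20.1 to 21.3 M gene counts, and mitochondrially encoded genes took 4.71% to 12.2% of them. Adipocyte identity genes had a mean of 9.80 to 10.4 on the log2(CPM + 1) scale, where CPM is the count scaled to the library size. Some libraries also held transcripts of other tissues. For muscle, with 12 of 17 listed genes past the filter on low counts, the list mean reached 5.17 (wild-type high-fat replicate 3) and 5.73 (transgenic control replicate 3) and did not exceed 2.49 elsewhere. For epithelium (6 of 13 genes) it reached 2.59 (wild-type control replicate 1) and 3.77 (transgenic control replicate 2) and did not exceed 1.08 elsewhere. Liver genes (9 of 12) had a mean of 5.69 for wild-type high-fat replicate 2, with 3.83 the highest of the rest. Schwann cell genes (9 of 11) had 4.32 for wild-type control replicate 1, with 2.81 the highest of the rest. So 2 of the 3 transgenic control libraries are among those rich in muscle or epithelial transcripts, and results are given without them where that matters. Brown fat genes (5 of 5 measured) also differed between libraries, with means of 1.13 to 5.90, and are given by group below.

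No gene passed the main interaction test. With edgeR's quasi-likelihood test, 0 of 16550 genes (0%) had an adjusted p below 0.05, and the smallest adjusted p was 0.557. At an unadjusted p below 0.05 there were 929 genes (5.61%), 502 positive (3.03%) and 427 negative (2.58%), against 828 that evenly spread p-values would give. At any p, 8493 of all genes tested (51.3%) had a positive interaction value. Counts of signs within the gene lists below are descriptions, since genes are not independent replicates. limma-voom also called 0 genes, with 1122 below an unadjusted 0.05, whereas DESeq2 called 23, 14 positive and 9 negative, from the same counts. Without wild-type control replicate 3, edgeR called 8 genes, all positive. The interaction genes named below are therefore given as measured values that did not pass, unless a diet or transgene effect within 1 group pair is stated to have passed.

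**Figure D1:**
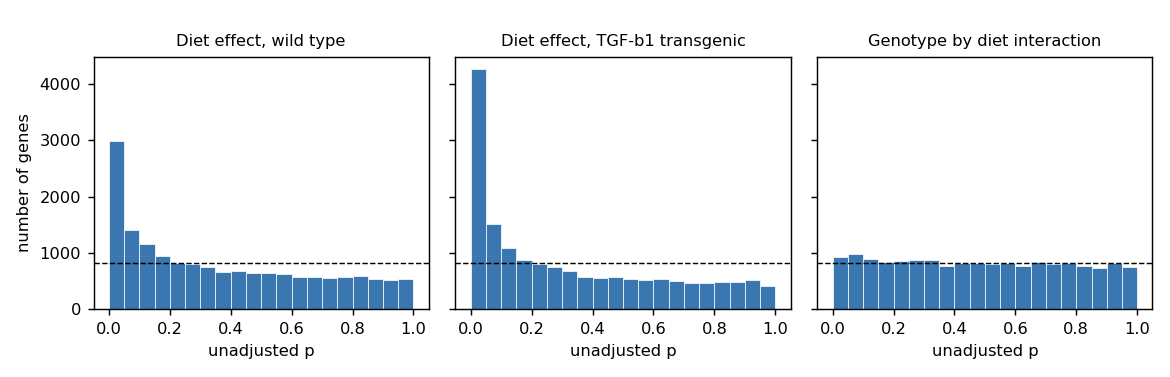
Number of genes per bin of unadjusted p (20 bins) for the diet effect in wild type, the diet effect in TGF-b1 transgenic fat and their difference, edgeR on all 12 libraries. Dashed lines mark an even spread. Both diet effects pile up near 0, whereas the interaction has 929 genes in its first bin against 828 for an even spread.

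The diet effects were tested in each genotype by themselves. The diet changed 188 genes in wild type (1.14% of genes tested; 113 up, 0.683%, and 75 down, 0.453%) and 1445 in transgenic fat (8.73%; 892 up, 5.39%, and 553 down, 3.34%). Of these, 138 were called in both, which is 73.4% of the wild-type calls and 9.55% of the transgenic calls, and all 138 went the same way. The wild-type count moved when single wild-type libraries were left out. It was 0 without high-fat replicate 2, 2 without control replicate 1 and 269 without control replicate 3. It was 9, 13 and 17 without high-fat replicate 1, control replicate 2 and high-fat replicate 3. With DESeq2 on all libraries it was 847. The transgenic count was 543 without high-fat replicate 3 and 572 without control replicate 1. The longer transgenic list does not by itself show a larger response, because the difference of the effects is what the interaction tests, where edgeR called 0 genes and DESeq2 23. The median size of the diet effect was 0.20 log2 units in wild type and 0.24 in transgenic fat, and the median size of the interaction was 0.19, with a median SE of 0.25 for the interaction and 0.18 for each diet effect. Across genes the diet effects had a Pearson r of 0.37 and a Spearman rho of 0.54, as a description, since genes are not independent replicates. They share no library.

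**Figure D2:**
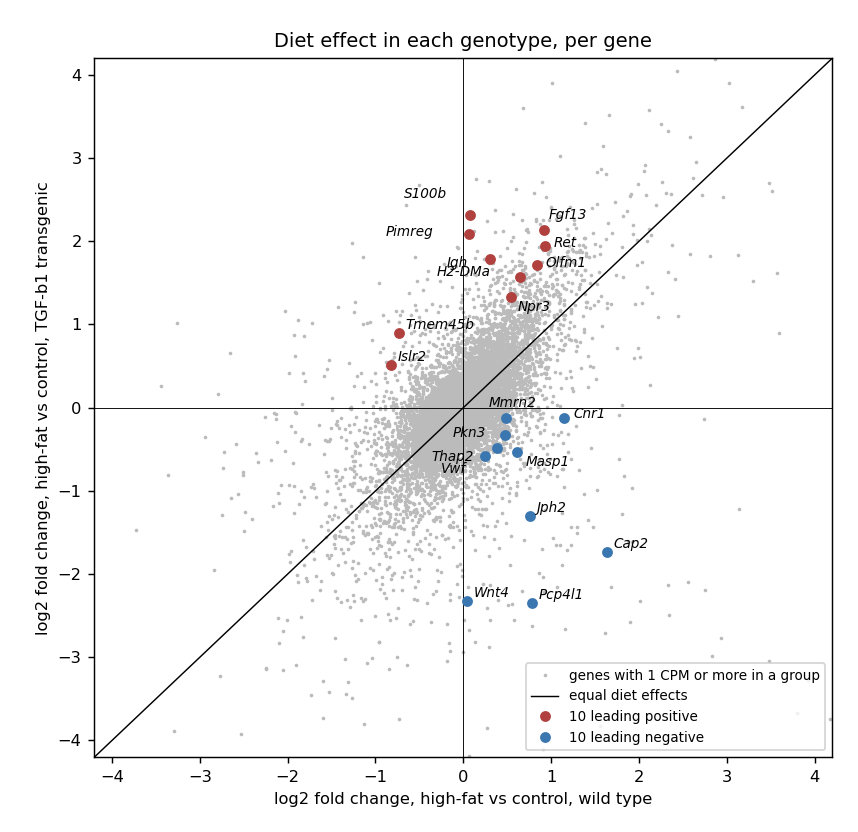
Log2 fold change of high-fat over control diet in wild type (x axis) and in TGF-b1 transgenic fat (y axis) for genes with at least 1 CPM in a group and both effects within the axes. The line marks equal effects, and the 20 labelled genes are the 10 positive and 10 negative interaction values with the smallest p. The cloud follows the line loosely (Pearson r 0.37, 28.4% of genes with diet effects of opposite sign), and the labelled genes lie off the line on either side, none past the edgeR adjusted threshold.

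The group that stood apart most often was transgenic fat on control diet. For each gene, the group whose mean log2 CPM lay farthest from the mean of the other 3 was found. Among the 929 genes with an unadjusted interaction p below 0.05, this was the transgenic control group for 446 genes (48%), the transgenic high-fat group for 200 (21.5%), the wild-type control group for 173 (18.6%) and the wild-type high-fat group for 110 (11.8%). Over all genes tested, the transgenic control group already led with 32.8%, ahead of 25.4%, 20.8% and 21% in that order. Among the 502 positive genes it stood low in 275 (54.8%), and among the 427 negative genes it stood high in 171 (40%). The 3 libraries of the group standing apart lay outside all 9 others for 394 of the 929 genes, against 1834 of all genes (11.1%). Leaving out the epithelium-rich pair gave the transgenic control group 55.3% (33.5% of all genes), leaving out the muscle-rich pair 54.2% (36.2%), and leaving out the liver-rich library with the muscle-rich pair 39.5% (31.4%). The lowest share was 38.6% (31.1% of all genes), without wild-type high-fat replicate 3. These counts rest on the same contrast that chose the 929 genes and are a description only.

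**Figure D3:**
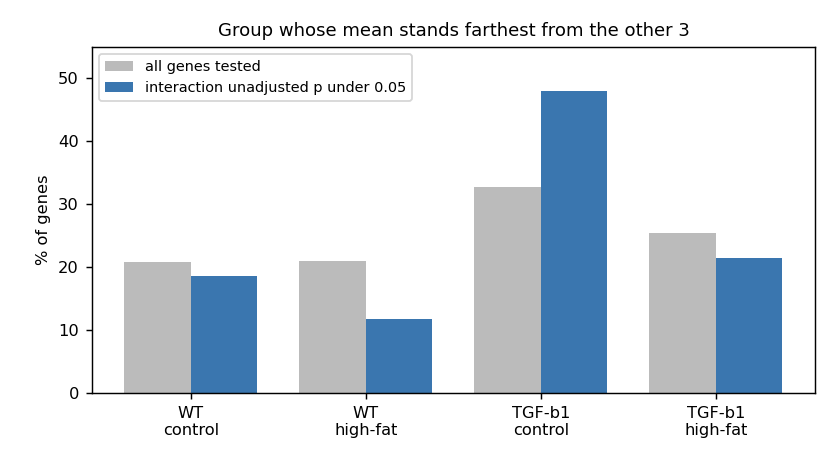
Percent of genes for which each group's mean stood farthest from the other 3, for all 16550 genes tested (grey) and for the 929 genes with an unadjusted interaction p below 0.05 (blue). The transgenic control group takes 32.8% of all genes and 48% of the 929.

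The transgene contrast was also taken within each diet. On control diet 6 genes passed for transgenic against wild type (0.0363% of genes tested). Anxa1, Cybb, Fgf13 and Npr3 were lower in transgenic fat and Pcp4l1 and Pkn3 were higher; Fgf13, Npr3, Pcp4l1 and Pkn3 are also among the 20 leading interaction genes. On high-fat diet 0 genes passed with edgeR (0%), 1114 (6.73%) had an unadjusted p below 0.05, and DESeq2 called 9. The call count on control diet was 0 to 58 when single libraries were left out. Among the 20 leading interaction genes, the transgene difference was larger on control diet in 19, with a median size of 0.96 log2 units against 0.23 on high-fat diet. Over all genes tested it was larger on control diet in 54.4%, with medians of 0.163 and 0.145. The interaction is the difference of the transgene contrasts, so it chose these 20 genes and the comparison is a description only. The 10 leading positive genes lay 0.57 to 1.46 log2 units lower in transgenic fat on control diet and between -0.14 and 0.83 on high-fat diet. The 10 leading negative genes lay 0.43 to 2.71 log2 units higher on control diet and between -0.82 and 0.07 on high-fat diet.

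Promoter sequence is shown for the leading gene of each direction that has a single annotated start, among the genes with an entry in the promoter table, because TGF-b signals reach DNA through Smad proteins, which bind the short box CAGAC. The windows run from 250 bases before to 50 after the RefSeq start on GRCm38.p6, written 5′ to 3′ on the gene's strand, and capitals mark CAGAC or its reverse complement GTCTG. The S100b window is chr10:76253586-76253885 on the plus strand, and the Pcp4l1 window is chr1:171196219-171196518 on the minus strand.
S100b: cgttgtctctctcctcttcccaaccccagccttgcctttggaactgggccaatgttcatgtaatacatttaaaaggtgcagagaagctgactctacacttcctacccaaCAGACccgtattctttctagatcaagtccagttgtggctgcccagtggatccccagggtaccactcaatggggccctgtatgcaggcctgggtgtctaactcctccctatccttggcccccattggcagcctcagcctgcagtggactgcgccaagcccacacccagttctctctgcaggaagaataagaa
Pcp4l1: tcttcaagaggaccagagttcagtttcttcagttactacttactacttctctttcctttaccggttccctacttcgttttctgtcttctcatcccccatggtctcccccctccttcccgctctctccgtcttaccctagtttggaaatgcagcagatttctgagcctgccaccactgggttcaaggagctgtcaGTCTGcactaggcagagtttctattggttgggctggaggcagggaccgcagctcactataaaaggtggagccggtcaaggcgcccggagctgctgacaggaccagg
Each window holds 1 match, and 49.6% of the 32851 promoter windows of the genome (16292) hold at least 1. Of the 20 leading genes, 13 had a promoter entry, with 23 windows, and 14 of these (60.9%) held the box. A box this short is common, and a match says nothing about binding.

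The 10 leading positive genes had lower levels in transgenic control fat than in the other groups, with 1 exception. Fgf13 (chromosome X, 59062139 to 59585572, GRCm38.p6), an intracellular fibroblast growth factor homologue that modulates sodium channels, held 46.3, 40.9 and 54.7 CPM in wild-type control libraries and 110, 82.6 and 75.7 CPM in wild-type high-fat libraries. In transgenic fat it held 21.8, 21.1 and 22.2 CPM on control diet and 83.6, 105 and 98 CPM on high-fat diet. The transgenic control libraries lay below all 9 others, and the high-fat groups overlapped. The diet raised Fgf13 in wild type (log2 0.92, adjusted p = 0.0244) and in transgenic fat (log2 2.14, adjusted p = 0.000121), and the interaction was 1.22 (SE 0.21, 95% interval 0.76 to 1.68, unadjusted p = 7.9e-05, adjusted p = 0.557).

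Npr3 (chromosome 15, 11839896 to 11907837), the natriuretic peptide clearance receptor that removes cardiac natriuretic peptides from the surface of adipocytes, had the same form. It held 1070, 1140 and 1120 CPM in wild-type control libraries, and 1670, 1590 and 1580 CPM in wild-type high-fat libraries. The transgenic libraries held 554, 568 and 619 CPM on control diet, and 1200, 1580 and 1590 CPM on high-fat diet. All 3 transgenic control libraries lay well below the other 9, and no diet groups overlapped within a genotype. The transgene lowered Npr3 on control diet (log2 -0.93, adjusted p = 0.0315), and high-fat diet raised it in transgenic fat (log2 1.33, adjusted p = 0.000439) but did not pass in wild type (0.54, adjusted p = 0.0602). The interaction was 0.79 (SE 0.18, 95% interval 0.40 to 1.17, adjusted p = 0.618).

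S100b, a calcium-binding protein of glia and adipocytes, lay at 4.07, 2.41 and 2.67 CPM in transgenic control libraries and at 21.4, 11.9 and 12.3 CPM in transgenic high-fat libraries. In wild type the diets overlapped, with 7.51, 6.04 and 11.6 CPM on control and 8.18, 8.18 and 10.1 CPM on high-fat diet. The transgenic control libraries were the lowest and the transgenic high-fat libraries the highest of the 12. The diet raised S100b in transgenic fat (log2 2.32, adjusted p = 0.00194), and the interaction was 2.24 (SE 0.41, 95% interval 1.34 to 3.14, adjusted p = 0.557). S100b is also on the Schwann cell list, of which all 9 measured genes had positive values (median 1.29, 0.315 without wild-type control replicate 1, the library rich in Schwann cell genes). Without that library the S100b interaction was 2.32.

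Tmem45b, a membrane protein gene, had diet effects of opposite sign, but the wild-type diets overlapped. It held 739, 641 and 448 CPM in wild type on control diet and 460, 335 and 302 CPM on high-fat diet, and 296, 335 and 207 against 504, 501 and 553 CPM in transgenic fat. The transgenic diets did not overlap. The diet raised Tmem45b in transgenic fat (log2 0.89, adjusted p = 0.027), the wild-type value was -0.74 (adjusted p = 0.109), and the interaction was 1.63 (SE 0.31, adjusted p = 0.557).

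Olfm1, an extracellular olfactomedin protein, and Ret, the receptor kinase for GDNF family ligands, rose with the diet in both genotypes. Olfm1 lay at 81.5 to 104 CPM in wild-type control, 149 to 181 in wild-type high-fat, 52.3 to 57.2 in transgenic control and 151 to 214 CPM in transgenic high-fat libraries. Its diet effect was 0.84 (adjusted p = 0.0244) in wild type and 1.72 (adjusted p = 0.000225) in transgenic fat. Ret lay at 57.4 to 66.4, 104 to 127, 29.5 to 41.4 and 110 to 165 CPM in the same order, with diet effects of 0.92 (adjusted p = 0.0288) and 1.95 (adjusted p = 0.000253). For both genes the high-fat groups overlapped and the transgenic control libraries were the lowest 3 of the 12. The interactions were 0.88 for Olfm1 and 1.02 for Ret.

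H2-DMa, which loads peptides onto MHC class II, lay at 7.49 to 10.3 CPM in transgenic control libraries, 14.1 to 14.7 CPM in wild-type control libraries, 20.9 to 24.4 CPM in wild-type high-fat libraries and 23.2 to 28.9 CPM in transgenic high-fat libraries. It rose with diet in wild type (log2 0.64, adjusted p = 0.038) and in transgenic fat (1.57, adjusted p = 0.000225), with an interaction of 0.92. Because 10.4% of its exon bases overlap Brd2 on the opposite strand and the strand setting of the counting is not given in the sources used here, its level is uncertain. Igh, the immunoglobulin heavy chain locus counted as 1 feature, lay at 6.25 to 7.41 CPM in transgenic control libraries and at 14.3 to 33.1 CPM in the other 9 (interaction 1.48); the exon annotation holds no gene of that symbol, so what was counted is uncertain. Pimreg, a mitotic regulator, lay at 0.497 to 0.942 CPM in transgenic control against 1.19 to 3.6 CPM in the others (interaction 2.02).

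Islr2, a neuronal cell surface protein gene, is the exception, since there the wild-type high-fat group stood lowest. Its wild-type libraries held 4.36 to 6.46 CPM with high-fat and 8.97 to 10.7 CPM with control diet, and 5.83 to 7.09 and 7.08 to 11 CPM in transgenic fat on control and high-fat diet. The wild-type diets did not overlap, but the diet effect did not pass in either genotype (-0.83, adjusted p = 0.0602, and 0.51, adjusted p = 0.119).

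**Figure D4:**
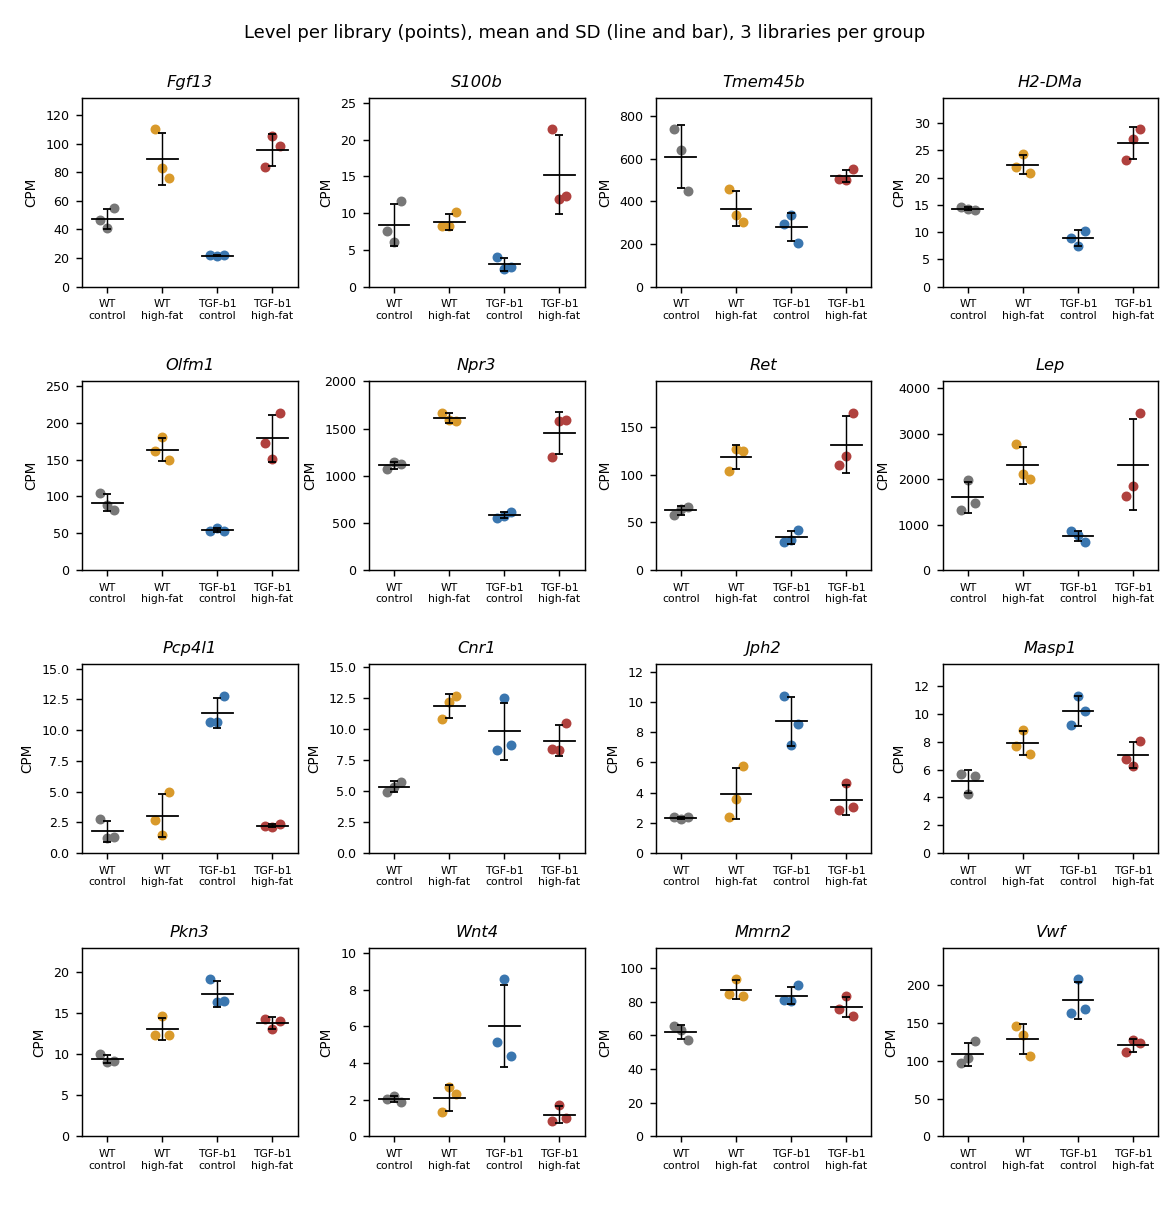
CPM per library (points, 3 per group) with the group mean (line) and SD (bar) for 15 of the 20 leading interaction genes and for leptin (Lep), on axes that start at 0. Transgenic control libraries (blue) have the lowest mean in the first 8 panels and stand high in Pcp4l1, Jph2, Wnt4 and Vwf, whereas wild-type control libraries sit lowest in Cnr1, Masp1, Pkn3 and Mmrn2.

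Among the 10 leading negative genes the transgenic control group stood high in 6 and the wild-type control group stood low in 4. Pcp4l1 (chromosome 1, 171173264 to 171196268), a small relative of the calmodulin-binding protein PEP-19, held 10.7, 10.7 and 12.8 CPM in transgenic control libraries. The wild-type libraries held 2.76, 1.27 and 1.30 CPM on control diet and 2.69, 1.5 and 4.97 CPM on high-fat diet, and the transgenic high-fat libraries 2.21, 2.11 and 2.39 CPM. The transgenic control libraries lay above all 9 others and the remaining groups overlapped. The transgene raised Pcp4l1 on control diet (log2 2.68, adjusted p = 0.0459) and the diet lowered it in transgenic fat (log2 -2.35, adjusted p = 0.00486). The interaction was -3.12 (SE 0.55, 95% interval -4.31 to -1.93, adjusted p = 0.557), and -2.49 without the muscle-rich pair.

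Wnt4 (chromosome 4, 137277635 to 137299501), a secreted Wnt ligand, held 5.16, 8.58 and 4.38 CPM in transgenic control libraries and 0.863, 1.73 and 0.997 CPM in transgenic high-fat libraries. Wild-type libraries held 1.32 to 2.68 CPM on either diet. The diet lowered Wnt4 in transgenic fat (log2 -2.33, adjusted p = 0.00347), the wild-type value was 0.04 (adjusted p = 0.966), and the interaction was -2.37 (SE 0.49, adjusted p = 0.557). Wnt4 is also made by mesothelial and epithelial cells; its highest library is the transgenic control library rich in epithelial genes, and without the epithelium-rich pair the interaction was -2.02.

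Jph2, which couples membranes in muscle cells, and Cap2, an actin regulator abundant in muscle, were the muscle-related genes. Jph2 held 2.38, 2.23 and 2.36 CPM in wild-type control, 2.41, 3.61 and 5.76 CPM in wild-type high-fat, 10.4, 7.17 and 8.54 CPM in transgenic control and 2.88, 4.65 and 3.04 CPM in transgenic high-fat libraries. All 3 transgenic control libraries were high, and the diets did not overlap in either genotype. In those libraries the skeletal and cardiac muscle list mean was 1.4, 1.47 and 5.73. Their smooth muscle and pericyte list mean was 5.08, 5.11 and 4.79, against 4.25 to 5.01 in the other libraries. The diet lowered Jph2 in transgenic fat (log2 -1.30, adjusted p = 0.0198), with an interaction of -2.06, and -1.69 without the muscle-rich pair. Cap2 held 0.694 to 0.873 and 1.06 to 4.78 CPM in wild type, and 4.27 to 6.24 and 0.623 to 2.44 CPM in transgenic fat, on control and high-fat diet. Its interaction of -3.37 moved to -2.23 without that pair. The part of muscle tissue in these values was not otherwise tested.

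Cnr1, the cannabinoid receptor CB1, was the leading gene for which the wild-type control group stood apart. It held 4.90, 5.38 and 5.78 CPM in wild-type control libraries and 10.8, 12.2 and 12.7 CPM in wild-type high-fat libraries, against 8.29, 12.5 and 8.77 and 8.39, 8.30 and 10.5 CPM in transgenic fat on control and high-fat diet. The wild-type control libraries lay below all 9 others, and the transgenic diets overlapped. The diet raised Cnr1 in wild type (log2 1.15, adjusted p = 0.0238), the transgenic value was -0.12 (adjusted p = 0.713), and the interaction was -1.27 (SE 0.25, 95% interval -1.80 to -0.73, adjusted p = 0.557).

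Masp1, a protease of the lectin complement pathway, and Pkn3, a serine/threonine kinase, were lowest in wild-type control and highest in transgenic control libraries. Masp1 lay at 4.22 to 5.72, 7.15 to 8.84, 9.18 to 11.3 and 6.28 to 8.08 CPM in wild-type control, wild-type high-fat, transgenic control and transgenic high-fat libraries. Pkn3 lay at 8.99 to 10.0, 12.3 to 14.6, 16.3 to 19.1 and 13 to 14.3 CPM in the same order. In both genes the high-fat groups overlapped, and the diets went in opposite directions without overlap in each genotype, as in 48 of all genes tested (0.29%). The transgene raised Pkn3 on control diet (log2 0.88, adjusted p = 0.0315); no diet effect of either gene passed. Thap2, a zinc finger gene, had the same opposite order, at 7.13 to 8.28 and 9.32 to 10.9 CPM in wild type and 10.9 to 13.9 and 8.18 to 9.50 CPM in transgenic fat, and fell with the diet in transgenic fat (log2 -0.49, adjusted p = 0.0427).

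Blood vessel genes supplied the other leading negative genes. Vwf, the von Willebrand factor of endothelium and platelets, held 163, 208 and 169 CPM in transgenic control libraries, above the 96.5 to 146 CPM of the other 9. The diet lowered it in transgenic fat (log2 -0.58, adjusted p = 0.0273), and the interaction was -0.83 (adjusted p = 0.68). Mmrn2, an endothelial matrix protein, rose with the diet in wild type from 57.5 to 65.4 up to 83.4 to 93.4 CPM (log2 0.49, adjusted p = 0.0348) and lay at 71.3 to 89.7 CPM in all 6 transgenic libraries (interaction -0.61). Of the 15 endothelial list genes measured, 6 had negative and 1 a positive interaction at an unadjusted p below 0.05. Among all genes tested these shares were 2.58% and 3.03%. In all, 12 of the 15 were negative. The median was -0.24, against 0.01 over all genes tested, and -0.0981 without the liver-rich and muscle-rich libraries. Emcn (-0.64), an endothelial sialomucin, and Tek (-0.40), the angiopoietin receptor, were the others with the smallest p. Emcn was the more orderly, at 29.2 to 34.1 and 37.0 to 38.2 CPM in wild type and 37.3 to 47.2 and 25.4 to 34.5 CPM in transgenic fat. In bulk tissue, fewer cells of a type and less RNA per cell cannot be told apart.

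Smooth muscle and pericyte genes were measured for 13 of 13 list members, and 4 were negative and 0 positive at an unadjusted p below 0.05 (median -0.27). Shares over all genes tested were 2.58% negative and 3.03% positive. Myh11, the smooth muscle myosin heavy chain, held 135, 142 and 67.1 CPM in transgenic control libraries against 38.3 to 82.5 CPM in the other 9, so those groups overlapped (interaction -1.19, unadjusted p = 0.00813). Des, an intermediate filament of all muscle types, had an interaction of -1.38 that moved to -0.52 without the muscle-rich pair. The list median moved to -0.16 without that pair and to -0.07 without the liver-rich library as well. The muscle list itself had a median interaction of -8.90, with 10 of its 12 measured genes negative at an unadjusted p below 0.05. Myh1, a fast skeletal myosin, lay at 74.5 and 79.2 CPM in the muscle-rich pair and at 0.0463 to 1.05 CPM elsewhere, and without the pair the list median was 1.28.

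Adipocyte genes that mark expansion leaned positive. Of the 13 list genes, 5 were positive and 1 negative at an unadjusted p below 0.05, against 3.03% and 2.58% of all genes tested. The median interaction of the list was 0.34 (0.193 without the liver-rich and muscle-rich libraries). The diet raised 9 and lowered 2 of the 13 in transgenic fat, and raised 1 and lowered 1 in wild type. Over all genes tested it raised 5.39% and lowered 3.34% in transgenic fat, and raised 0.683% and lowered 0.453% in wild type. Lep, the leptin gene, held 1320, 1990 and 1480 CPM in wild-type control libraries and 2780, 2120 and 2010 CPM in wild-type high-fat libraries. It held 849, 762 and 623 CPM in transgenic control and 1640, 1860 and 3470 CPM in transgenic high-fat libraries. The transgenic control libraries were the lowest 3 of 12 and the high-fat groups overlapped. The diet raised Lep in transgenic fat (log2 1.64, adjusted p = 0.00516), the wild-type value was 0.53 (adjusted p = 0.323), and the interaction of 1.11 (unadjusted p = 0.0117) moved to 0.71 without transgenic high-fat replicate 3. Sfrp5, a secreted Wnt antagonist of enlarging adipocytes, lay at 63.2 to 159 CPM in transgenic control and 460 to 509 CPM in transgenic high-fat libraries, against 180 to 518 and 527 to 689 CPM in wild type. Its interaction of 1.35 (unadjusted p = 0.0224) moved to 0.80 without wild-type control replicate 3. Trem2, a lipid-sensing receptor of macrophages, was the negative member at -1.25 (unadjusted p = 0.0216).

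The main adipocyte products had smaller values than leptin. Adipoq, which encodes adiponectin, lay at 3070 to 5470 CPM over all 12 libraries with an interaction of -0.02 (95% interval -0.53 to 0.50). Plin1, the lipid droplet coat protein, had 0.13 (-0.24 to 0.49), and Pparg, the master regulator of adipocyte differentiation, 0.44 (0.06 to 0.82, unadjusted p = 0.0273). Of the 15 adipocyte identity genes, 10 were positive and 1 had an unadjusted p below 0.05 (median 0.24). The same shares were 51.3% and 5.61% over all genes tested.

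Genes of fatty acid synthesis had one of the larger list medians and almost no single gene with a small p. The 20 de novo lipogenesis genes had a median diet effect of -1.35 in wild type and -0.34 in transgenic fat, and a median interaction of 0.89. In all, 17 were positive, against 51.3% of all genes tested, where 5.61% had an unadjusted p below 0.05. The single gene with an unadjusted p below 0.05 was Slc25a1, the mitochondrial citrate carrier (0.996, edgeR unadjusted p = 0.0493). The wild-type control libraries were spread widely. The list mean was 9.84, 9.59 and 8.05 on the log2(CPM + 1) scale in its 3 libraries, so replicate 3 lay at the level of the wild-type high-fat group (8.06 to 8.26). The transgenic libraries lay at 8.89 to 9.0 on control and 8.29 to 8.78 on high-fat diet. Thrsp, a regulator of lipogenesis, held 3550, 2490 and 428 CPM in the wild-type control libraries. The list median was 1.25 without wild-type control replicate 3 and 0.52 without replicate 1. Fasn, fatty acid synthase, had an interaction of 1.46 (SE 0.78, unadjusted p = 0.0869), 1.96 without replicate 3 (adjusted p = 0.135) and 0.95 without replicate 1.

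Triglyceride genes also leaned positive: 10 of 13 were positive and 3 had an unadjusted p below 0.05. Among all genes tested, 51.3% were positive and 5.61% had such a p. The list median was 0.33, with 0.14 without transgenic control replicate 3 and 0.545 without wild-type control replicate 3. Lpin1, a phosphatidate phosphatase, lay at 291 to 380 CPM in transgenic control and 419 to 463 CPM in transgenic high-fat libraries, against 356 to 660 and 334 to 438 CPM in wild type (interaction 0.89, unadjusted p = 0.00711). Dgat2, which adds the last fatty acid to triglyceride, had 0.89 and Mogat2, a monoacylglycerol acyltransferase, 2.01; Mogat2 moved to 0.95 without wild-type control replicate 1. Plin2, a lipid droplet protein from the list of lipid-associated macrophage genes, had 1.02. In each of these 4 genes wild-type control replicate 3 was the lowest of its group.

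Nuclear oxidative genes had small positive values. All 26 nuclear-encoded oxidative phosphorylation genes were positive, between 0.06 and 0.57, with a median of 0.25 and 0 at an unadjusted p below 0.05. Over all genes tested, 51.3% were positive. Their diet effects had a median of -0.42 in wild type and -0.19 in transgenic fat, and no member passed in either. Of 16 fatty acid oxidation genes, 15 were positive (median 0.33, and 0.0832 without transgenic high-fat replicate 1). The 13 mitochondrially encoded genes had a median of 0.10, which changed sign with the libraries used (-0.214 to 0.467 over the alternatives). The oxidative phosphorylation median moved to 0.06 without transgenic high-fat replicate 1.

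That library was also the one richest in brown fat genes. A list of 5 such genes stood at 5.90 in it, and at 3.44 and 3.6 in the other transgenic high-fat libraries. The list stood at 1.57, 1.13 and 3.93 in wild-type high-fat and at 4.19, 4.23 and 1.15 in wild-type control libraries. In transgenic control libraries it stood at 4.24, 4.42 and 1.99. The part of brown fat in the oxidative and thermogenic values was not tested. Ucp1, the uncoupling protein of thermogenic fat, held 92.6, 27.7 and 0.0925 CPM in wild-type control and 0.378, 0.0879 and 50.9 CPM in wild-type high-fat libraries. It held 28, 89.2 and 1.54 CPM in transgenic control and 228, 37.9 and 20.3 CPM in transgenic high-fat libraries. Each of these groups overlapped at least 1 other, and the interaction of 2.50 had an interval of -2.68 to 7.68. It was 0.797 without transgenic high-fat replicate 1 and 8.69 without wild-type high-fat replicate 3. The 13 thermogenic genes had a median of 1.05 with 12 positive, 0.60 without transgenic high-fat replicate 1 and 2.25 without the liver-rich and muscle-rich libraries. Clstn3, a calsyntenin of adipocytes, had 1.01 (unadjusted p = 0.0279) and Adrb1, a beta-adrenergic receptor of the lipolysis list, 1.09 (unadjusted p = 0.00271).

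**Figure D5:**
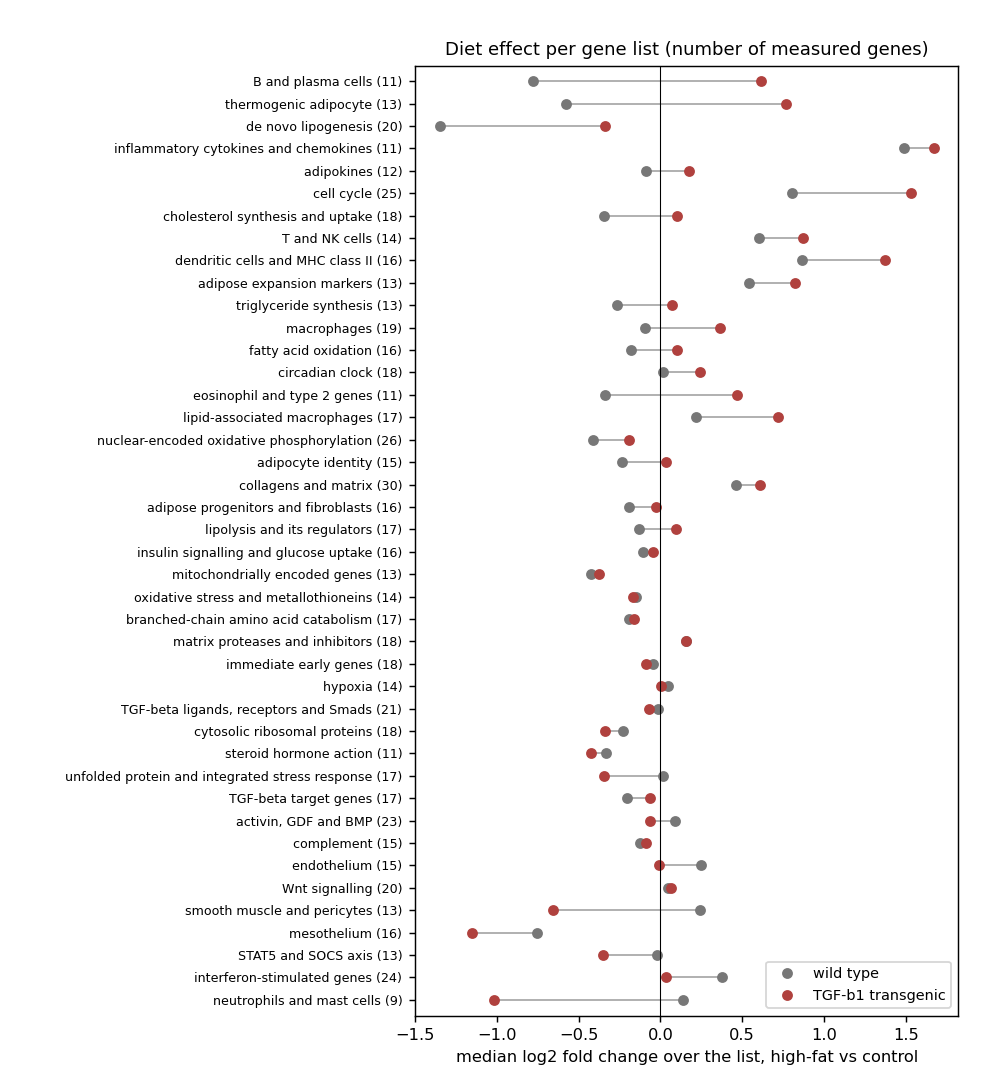
Median log2 fold change of high-fat over control diet in wild type (grey) and TGF-b1 transgenic fat (red) for 42 gene lists with at least 5 measured genes, ordered by the median interaction of the list; the number of measured genes is in brackets. Lipogenesis, thermogenic and B cell genes have the widest positive gaps, and smooth muscle genes and neutrophil and mast cell genes have wide negative gaps.

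Many antigen presentation genes rose with the diet in both genotypes. The diet raised 6 of the 16 dendritic cell and MHC class II genes in wild type and 9 in transgenic fat, and lowered 0 in either. Over all genes tested it raised 0.683% in wild type and 5.39% in transgenic fat. Of the 16, 13 had a positive interaction and 3 an unadjusted p below 0.05, all positive (median 0.35, and 0.66 without transgenic control replicate 3). Such shares were 51.3% and 5.61% over all genes tested. Cd74, the invariant chain of MHC class II, held 211, 260 and 235 CPM in wild-type control, 401, 477 and 450 CPM in wild-type high-fat, 111, 132 and 181 CPM in transgenic control and 463, 498 and 614 CPM in transgenic high-fat libraries. The transgenic control libraries were below the other 9, and the high-fat groups overlapped. Its diet effect was 0.91 in wild type (adjusted p = 0.0342) and 1.89 in transgenic fat (adjusted p = 0.000398), with an interaction of 0.98 (unadjusted p = 0.00159). H2-Ab1, a class II chain, had 0.92.

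Macrophage genes had 17 of 19 positive values and 3 with an unadjusted p below 0.05 (median 0.33, and 0.185 without transgenic high-fat replicate 1). All genes tested had 51.3% positive values and 5.61% below that p. Itgam, the integrin chain CD11b, had 0.998 and Csf1r, the receptor for the macrophage growth factor, 0.54. Cfp, the complement factor properdin that myeloid cells make, lay at 42.3 to 46.6 CPM in transgenic control, 61.5 to 93.6 CPM in transgenic high-fat and 50.7 to 73.2 CPM in wild-type libraries (interaction 0.93, unadjusted p = 0.00121). The diet raised Cfp in transgenic fat (log2 0.71, adjusted p = 0.0185). Among chemokine genes, Ccl2, which draws monocytes into tissue, rose by 2.05 log2 units in wild type (adjusted p = 0.0178) and 2.85 in transgenic fat (adjusted p = 0.000836), and its interaction of 0.80 had an interval of -0.10 to 1.70. Of 11 inflammatory cytokine and chemokine genes, 0 had an unadjusted interaction p below 0.05.

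B cell genes were low in count and leaned positive. Of 11 measured, 9 were positive and 5 had an unadjusted p below 0.05 (median 1.86, the largest of the cell type and pathway lists in that plot). The shares over all genes tested were 51.3% and 5.61%. Cd79a, a chain of the B cell receptor complex, lay at 2.55 to 5.62 CPM in wild-type control, 0.882 to 1.23 CPM in wild-type high-fat, 0.992 to 1.78 CPM in transgenic control and 0.863 to 2.79 CPM in transgenic high-fat libraries. So the wild-type diets did not overlap and the transgenic diets did. Cd79b, its partner chain, held 1.68 to 3.83 and 1.42 to 1.62 CPM in wild type, and 0.794 to 1.27 and 1.29 to 3.17 CPM in transgenic fat. No diet effect of either gene passed. The interactions were 2.12 and 1.92, and the list median was 1.03 without transgenic high-fat replicate 3. A lymph node list (6 of 10 genes measured) ranged from 0.788 to 1.98 in wild-type control, 0.618 to 1.30 in wild-type high-fat, 0.977 to 1.36 in transgenic control and 0.491 to 1.41 in transgenic high-fat libraries. Its part in the B cell values was not tested.

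Genes of the TGF-b pathway itself were counted by list, and 5.61% of all genes tested had an unadjusted interaction p below 0.05. Tgfb1 held 45.7 to 47.8 and 63.7 to 69.0 CPM in wild type and 51.3 to 61.9 and 75 to 82.3 CPM in transgenic fat, on control and high-fat diet. The counts do not separate transgene from endogenous reads. The diet raised Tgfb1 in both genotypes, by 0.52 (adjusted p = 0.0244) and 0.46 (adjusted p = 0.0106), and the interaction was -0.07 with an interval of -0.34 to 0.20. Of 21 ligand, receptor and Smad genes, 16 were negative and 2 had an unadjusted p below 0.05, both negative (median -0.09; 0.0246 without the liver-rich and muscle-rich libraries). These were Eng, the endothelial co-receptor endoglin (-0.60), and Smad6, an inhibitory Smad (-0.76). Of 17 measured TGF-b target genes, 2 had an unadjusted p below 0.05, both positive. Their median was -0.18, and turned to 0.192 without the liver-rich and muscle-rich libraries. Cdkn1a, the cell cycle inhibitor p21, had 1.06 and Pmepa1, a feedback inhibitor of Smad signalling, 0.88.

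Of 20 Wnt genes, 4 were negative and 2 positive at an unadjusted p below 0.05, against 2.58% and 3.03% of all genes tested. The list median was -0.24, and -0.045 without wild-type high-fat replicate 3. Besides Wnt4, these included Axin2, a feedback target of Wnt signalling (-0.73), and Dkk2, a Wnt antagonist (-1.69). Axin2 lay at 20.7 to 24.5 CPM in transgenic high-fat libraries and 26.2 to 43.8 CPM in the other 9, and the diet lowered it in transgenic fat (log2 -0.80, adjusted p = 0.027). Bmp2, a bone morphogenetic protein, lay at 14.6 to 16.6 CPM in transgenic control libraries and 5.90 to 10.4 CPM in the other 9. It fell with the diet in transgenic fat (log2 -1.03, adjusted p = 0.00347), and its interaction was -0.76 (unadjusted p = 0.00518).

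Hormone receptor genes and the glucocorticoid response gave single genes rather than a list. Tsc22d3, the glucocorticoid-induced gene also called Gilz, held 44.7 to 84.1 CPM in transgenic control libraries and 93.2 to 137 CPM in the other 9. The diet raised it in transgenic fat (log2 0.95, adjusted p = 0.0182), with an interaction of 1.03 (unadjusted p = 0.00397). Pgr, the progesterone receptor, held 14.9, 3.51 and 7.73 CPM in transgenic control and 0.480 to 1.73 CPM in transgenic high-fat libraries, against 1.35 to 3.56 CPM in wild type. It fell with the diet in transgenic fat (log2 -3.0, adjusted p = 0.00648), and its interaction of -2.24 was -2.59 without the epithelium-rich pair. C3, the central complement component, lay at 1400 to 2400 CPM in transgenic high-fat libraries and 2730 to 3470 CPM in the other 9, so there the transgenic high-fat group stood apart. The diet lowered C3 in transgenic fat (log2 -0.73, adjusted p = 0.0294), with an interaction of -0.84 (unadjusted p = 0.00648).

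The collagen and matrix list held few genes with a small p. Of 30 collagen and matrix genes, 2 were positive at an unadjusted p below 0.05 (median 0.21; 0.091 without wild-type high-fat replicate 1), namely Col18a1 (0.54), a basement membrane collagen, and Col5a2 (0.51), a fibrillar collagen. Col1a1, the main fibrillar collagen, had 0.22 (-0.24 to 0.68) and Col6a2, a collagen of the adipocyte surface, 0.47 (-0.17 to 1.10). Of 16 adipose progenitor and fibroblast genes, 3 were positive and 1 negative at an unadjusted p below 0.05 (median 0.17). Over all genes tested, 5.61% were below it. Pi16, a marker of early adipose progenitors, lay at 78.4 to 88.3 and 42.2 to 66.8 CPM in wild type and 42.3 to 60.6 and 57.6 to 91.8 CPM in transgenic fat (interaction 1.13, unadjusted p = 0.00161). Mfap5 (0.67), of the same progenitors, was the next in that list.

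Of a panel of 33 genes, drawn up for adipose biology with earlier results of these data known, all were measured, 0 passed the interaction test with edgeR and 10 had an unadjusted p below 0.05, against 5.61% of all genes tested. DESeq2 called Fgf13, S100b and Npr3 of the panel. The 10 genes were Fgf13, S100b, Npr3, Pparg, Lep, Sfrp5, Clstn3, Trem2, Cd74 and Alox15. Alox15, a lipoxygenase of alternatively activated macrophages and eosinophils, fell with the diet in wild type (log2 -2.75, adjusted p = 0.0178) and in transgenic fat (log2 -1.29, adjusted p = 0.0443). It held 21.3, 10.7 and 8.65 against 1.23, 2.33 and 2.46 CPM in wild type, and 4.86, 5.08 and 5.69 against 2.45, 2.49 and 1.45 CPM in transgenic fat. The wild-type control libraries lay above all 9 others and the high-fat groups overlapped (interaction 1.46, unadjusted p = 0.0126; 0.98 without wild-type control replicate 1).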

How the data were processed

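RNA of visceral fat was measured in 12 libraries of 4 groups, read from the sample titles. RNA came from a Zymo column kit and libraries from DNBseq (BGI), per the labels' protocols. The authors deposited raw whole-number counts of reads per gene. The build was mm10 and the tools were HISAT2 2.2.0, HTSeq 2.0 and DESeq2 1.32.0, per the submitters' processing notes; the annotation and strand setting were not given in the sources used here. The 5 summary entries per file (16.8% to 21.0% of reads) stayed out of sizes and tests. The 4 deposited comparison tables were not used.

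In R 4.3.3, genes were kept with edgeR 4.0.16's filterByExpr (minimum count 10, minimum total 15), scaled by TMM and fitted as 4 group means over 12 libraries (8 residual degrees of freedom); the biological coefficient of variation was 20.1%. Quasi-likelihood F tests gave p-values, adjusted by Benjamini-Hochberg over the 16550 genes, with calls below 0.05. The SE is the log2 value over the square root of F. Log2 CPM values use a prior count of 2, fold changes the default of edgeR's fit, and list means log2(CPM + 1). The code was also run on simulated counts with large differences set in transgenic high-fat libraries and no other group effects. That run does not measure what these data could show.

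Named genes are the 10 of each sign with the smallest interaction p and at least 1 CPM in the highest group, leaving out predicted genes, since none passed; the panel; and up to 3 members of each of 51 lists. The members, lists and tests were chosen with earlier results of these data known. A few further list members are named for their role. A panel gene is not reported here. Symbols matched the RefSeq table of GRCm38.p6 for 99% of genes tested; promoters come from RefSeq. Same-numbered libraries had deviations that correlated at -0.11 to 0.27, above 0.1 in 4 of 18 pairs. Libraries of other numbers had -0.26 to 0.19, above 0.1 in 4 of 36 pairs. The main test used no pairing, and a replicate block was run as an alternative. No pair of libraries was within sampling noise (chi-square per degree of freedom at least 20.7). Alternatives were RLE scaling, DESeq2 1.42.0, limma-voom 3.58.1 with quality weights, no filter, a replicate block, a robust fit, and leaving out libraries; DESeq2's likelihood ratio test and leaving out the liver-rich library with the muscle-rich pair were added after seeing the data.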

Additional observations from a re-analysis of the deposited data

Results flagged for a closer look

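In 8 of the genes named above or in their lists, the libraries of the 2 diets did not overlap in wild type and did not overlap in transgenic fat, and they went in opposite directions. Those with a negative log2 interaction were Jph2 (-2.06), Masp1 (-1.15), Pkn3 (-0.80), Thap2 (-0.87), Cap2 (-3.37) and Emcn (-0.64). Those with a positive one were Adrb1, a beta-adrenergic receptor gene (1.09), and Cd79b, a B cell receptor chain (1.92). With edgeR the interaction did not pass for any of the 8, whereas DESeq2 called Jph2, Masp1, Cap2 and Pkn3, and over all genes tested 48 of 16550 (0.29%) had this order. Of those 48, 45 had an unadjusted interaction p below 0.05. That p also chose many of the named genes, so the 8 are a description only. Adrb1 lay at 8.56 to 12.4 and 6.86 to 7.94 CPM in wild type on control and high-fat diet, and at 5.87 to 8.88 and 9.69 to 14.4 CPM in transgenic fat.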

How the results depend on the processing

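The 20 leading genes kept their sign and an unadjusted p below 0.05 under all 22 alternatives run, and DESeq2 called 17 of them (not Pimreg, Thap2 or Vwf). They were chosen by their interaction p in these same libraries, so the kept signs and p-values are a description only. The transgenic control group stood apart most often among genes with an unadjusted p below 0.05 under every one of the alternatives, with 38.6% to 63.2%, against 30.1% to 38.2% of all genes. The number of interaction calls was 0, but 23 with DESeq2's Wald test, 23 with its likelihood ratio test, 53 with no filter (many of them muscle genes), 1 without the epithelium-rich pair, and 0 to 8 when single libraries were left out, 8 without wild-type control replicate 3. For diet in wild type (188) it was 847 with DESeq2, 699 with limma-voom, 683 with no filter, 99 with the replicate block, 32 without the epithelium-rich pair, 23 without the muscle-rich pair, and 0 (without high-fat replicate 2) to 269 leaving out single libraries. For diet in transgenic fat (1445) it was 826 without the epithelium-rich pair and 543 to 1504 leaving out single libraries. For the transgene on control diet (6) it was 256 with DESeq2, 269 with no filter, 0 with the replicate block, 1 without the epithelium-rich pair, 16 without the muscle-rich pair, and 0 to 58 leaving out single libraries. For the transgene on high-fat diet (0) it was 9 with DESeq2 and 5 with no filter. The replicate block gave 0 interaction calls, and 4 of 12 libraries correlated best with their own number. The causes were not tested. Some signs reversed with the libraries used. The mesothelial gene Msln (-0.21) was 0.048 without the muscle-rich pair and 0.27 without the liver-rich library too. In that last setting the desaturase Scd1 (0.47) was -0.20. Leaving out single libraries, Adipoq ran from -0.17 to 0.14, Msln from -0.58 to 0.062 and Tgfb1 from -0.13 to 0.00623. With 3 libraries a group and a median SE of 0.25, small interactions could not be seen. Large values did not pass with edgeR either, such as -3.37 for Cap2 and -3.12 for Pcp4l1. The 0 calls therefore do not show that large interactions are absent.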
